A study of Mus musculus with 6 samples.

Results

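Autophagy genes were followed in bone marrow macrophages with and without RKIP, the Raf kinase inhibitor protein encoded by Pebp1. The members are 40 genes chosen by symbol, from the initiating kinases to the cargo receptors, and all 40 were found among the 27458 genes of the deposited table. Bulk RNA sequencing covered 6 libraries of primary bone marrow macrophages under macrophage colony-stimulating factor (M-CSF). Of these, 3 came from wild-type mice (RKIP+/+, called WT) and 3 from RKIP knockout mice (RKIP-/-, called KO), and M-CSF was common to both groups. The strain, age and sex of the mice, and whether the libraries came from separate animals, are not given in the sources used here, so the p-values reflect only how far these 6 libraries vary, and that variation may be technical.

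Macroautophagy encloses cytoplasm in a double membrane, the autophagosome, and delivers it to the lysosome. The ULK kinase complex starts the process, and a class III phosphatidylinositol 3-kinase (PI3K) complex marks the membrane. Lipid transfer proteins and scramblases let the membrane grow, and ubiquitin-like conjugation systems attach the Atg8 family proteins (LC3 and GABARAP) to it. Cargo receptors bind Atg8 proteins and hold ubiquitinated or damaged material. In macrophages and osteoclasts parts of the same machinery also serve LC3-associated phagocytosis and secretion at the ruffled border.

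Of the 40 autophagy genes, 12 rose and 2 fell in KO by edgeR's quasi-likelihood test (adjusted p under 0.05, Benjamini-Hochberg over 11636 tested genes). Among all tested genes 39.7% were called, 20.3% as higher and 19.4% as lower. Changes were small: of the 14 called members the largest change was the 1.37-fold rise of Ulk2, followed by Rb1cc1 (1.29-fold) and Wdfy3 (1.27-fold). The higher members were Ulk2, Rb1cc1, Wdfy3, Map1lc3a, Gabarapl1, Ulk1, Uvrag, Nbr1, Atg12, Ambra1, Calcoco1 and Atg2a, and the lower ones were Vmp1 and Atg101. The median log2 fold change was 0.08 over the members and -0.01 over all tested genes. In the table's FPKM (fragments scaled to exon length and to the mapped fragments of the library), all 3 KO libraries lay above all 3 WT libraries for 21 members, against 32.4% of all tested genes, and below them for 3 members, against 19.1%. Another scaling moved the split: with upper-quartile factors 10 members were higher and 5 lower and 39.9% of all calls were higher, against 51.2% with the TMM factors used here. In limma on log2(FPKM + 1), 15 members were higher and 1 lower and 62.8% of all calls were higher.

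Fold changes across the whole table followed transcript length, and the autophagy genes followed it too. With the tested genes in 10 bins of equal size by length, the shortest bin (38 to 966 bp, longest annotated transcript) had a median log2 fold change of -0.32 and the longest bin (6575 to 40378 bp) one of 0.20. The members are long, with a median of 4016 bp against 3151 bp for all tested genes. Among the 20 longer members (4138 to 14274 bp) 9 were higher and 0 lower by edgeR, and 18 had a positive log2 fold change, while 42.1% of all 3740 genes of that length range were higher and 6.85% lower. Among the 20 shorter members (1112 to 3895 bp) 3 were higher and 2 lower, while 10.5% of all 5982 genes of that range were higher and 22.0% lower. Over the 40 members the log2 fold change and log2 length had Pearson's r of 0.443 and Spearman's rho of 0.496, and without Wdfy3, the longest, r was 0.376. Over all 11627 tested genes with a length r was 0.356 and rho 0.492. The log2 fold change rose by 0.085 per doubling of length over the members and by 0.143 over all these genes. With the merged length of all annotated exons in place of the longest transcript, r of the members was 0.321. These coefficients run across genes of the same 6 libraries and describe them without a test.

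**Figure D1:**
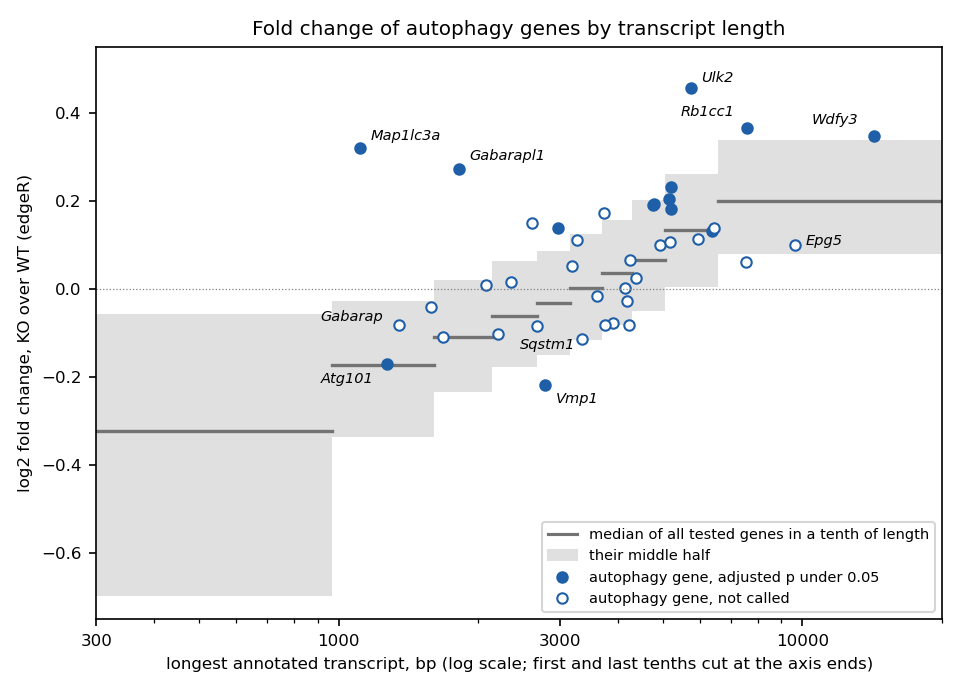
The log2 fold change of each of the 40 autophagy genes (KO over WT, edgeR, y axis) is plotted against its longest annotated transcript (bp, log x axis). Grey lines are the medians of all tested genes in 10 length bins and grey boxes their middle 50%. Filled points have an adjusted p under 0.05. Farthest above the median of their bin lie Map1lc3a (1112 bp, 0.32), Gabarapl1 (1820 bp, 0.27) and Ulk2 (5743 bp, 0.46), and farthest below lies Vmp1 (2787 bp, -0.22).

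The main fit was set beside a fit whose offset removes, library by library, the trend of counts on length and GC content. With this length and GC correction, 10 members were higher and 1 lower, against 30.4% called among all tested genes (14.2% higher and 16.3% lower), and the median of the members was 0.03. Calls held in both fits for 9 members: Ulk1, Ulk2, Ambra1, Map1lc3a, Gabarapl1, Nbr1, Calcoco1 and Wdfy3 were higher and Vmp1 was lower. The calls of 5 members ended (Rb1cc1, Atg101, Uvrag, Atg2a and Atg12), and Optn and Gabarap were called higher. Of the 14 members called, 4 kept their call in all 21 alternative fits: Ulk2, Map1lc3a and Gabarapl1 as higher and Vmp1 as lower. The other 26 members were not called, and 15 members were called in none of the fits. With the correction, log2 fold change and log2 GC content had Pearson's r of 0.444 over the members and -0.016 over all tested genes with a length. In the main fit r was 0.131 and -0.186. The relation of the members to GC content was thus stronger with the correction than without it, and why was not tested.

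Promoter windows are shown for Ulk2, the member with the largest rise in the main fit (with the length and GC correction Map1lc3a and Gabarapl1 rose more), and for Gabarapl1, the rise of the most abundant called member, to set the start regions of these genes side by side. They are RefSeq sequences of GRCm38.p6, 250 bases before to 50 after the gene's start, and capitals mark CG dinucleotides. The Ulk2 window holds 45 CG dinucleotides and the Gabarapl1 window 12, against a median of 7 over all 32851 windows of the table and of 20 over the 38 windows of the 32 members that have one.
Ulk2 (chr11:61855043-61855342, minus strand): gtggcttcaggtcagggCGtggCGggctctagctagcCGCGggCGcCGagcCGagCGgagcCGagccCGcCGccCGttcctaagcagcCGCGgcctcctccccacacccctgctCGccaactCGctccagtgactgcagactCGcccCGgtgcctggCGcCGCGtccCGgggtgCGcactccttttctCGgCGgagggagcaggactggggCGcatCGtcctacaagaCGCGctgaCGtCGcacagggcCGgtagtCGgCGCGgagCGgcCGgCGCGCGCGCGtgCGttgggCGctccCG
Gabarapl1 (chr6:129532942-129533241, plus strand): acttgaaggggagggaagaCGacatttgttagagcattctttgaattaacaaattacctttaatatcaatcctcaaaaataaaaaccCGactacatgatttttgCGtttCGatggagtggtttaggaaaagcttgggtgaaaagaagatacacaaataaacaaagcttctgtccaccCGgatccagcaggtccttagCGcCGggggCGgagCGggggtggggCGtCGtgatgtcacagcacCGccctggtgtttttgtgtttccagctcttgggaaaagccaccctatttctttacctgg

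Transcription factors of the MiT family, among them TFEB and MITF, are known to bind E-box motifs with the core CACGTG at lysosomal and autophagy genes. The core reads the same on both strands. It was found in the window of 4 of the 32 members (12.5%) and of 8.09% of all 27025 genes with a window. These shares come from unlike windows, since the core holds a CG. Of the 38 member windows, 34 have more CG dinucleotides than the median of all windows. The motif was picked after several motifs had been looked for in these windows, and a match is only a run of letters. The members with the core are Atg3, Atg5, Atg7 and Atg14, and 0 of these 4 were called, against 39.7% of all tested genes. The windows of Atg7 and Atg14 lie inside the span that the deposited table gives for these genes. Each match is printed with 12 bases on either side, and capitals mark the core.
Atg14 (chr14:47568418-47568447, minus strand): aaaacaaaatccCACGTGactggccctgag
Atg3, upstream match (chr16:45158723-45158752, plus strand): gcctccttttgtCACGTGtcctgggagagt
Atg3, downstream match (chr16:45158746-45158775, plus strand): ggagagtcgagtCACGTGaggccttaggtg
Atg5 (chr10:44268313-44268342, plus strand): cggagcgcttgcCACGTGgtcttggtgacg
Atg7 (chr6:114670952-114670981, plus strand): catattggtggtCACGTGtgcagtaagtga

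Among the 5 genes of the initiating complex 3 rose and 1 fell, against 20.3% and 19.4% of all tested genes. With the length and GC correction 2 were higher and 0 lower, against 14.2% and 16.3%. Ulk2 and Ulk1 encode the kinases that start autophagosome formation, and Rb1cc1 encodes FIP200, the scaffold of their complex. Ulk2 stood at 19.6, 20.3 and 19.5 FPKM in the WT libraries and at 26.8, 29.7 and 28.2 FPKM in the KO libraries. Every KO library was above every WT library, and the rise was 0.46 ± 0.04 on the log2 scale (edgeR, adjusted p = 1.9e-05), where ± is a standard error worked back from the F statistic of the test. With the length and GC correction it was 0.33 ± 0.04 (adjusted p = 0.00017). Ulk2 occupies positions 61775649 to 61855073 of chromosome 11, minus strand.

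Ulk1 was at 11.9, 11.8 and 11.1 FPKM in WT and at 13.9, 15.2 and 13.4 FPKM in KO, with no overlap (log2 fold change 0.23 ± 0.05, edgeR, adjusted p = 0.0039; corrected 0.20). Its call ended with a correction on length alone (0.12, adjusted p = 0.10). Rb1cc1 was at 5.46, 5.29 and 5.02 FPKM in WT and at 7.05, 6.47 and 7.58 FPKM in KO, again with all KO libraries on top. Its log2 fold change of 0.37 ± 0.06 (edgeR, adjusted p = 0.00050) shrank to 0.04 (adjusted p = 0.41) once length and GC content were corrected for, and its longest transcript has 7607 bp. Neither of the other partners of the complex was called higher. Atg13, the regulatory subunit, stood at 12.2 FPKM in all 3 WT libraries and at 12.5, 12.4 and 12.6 FPKM in KO, a log2 fold change of -0.02 once the libraries were scaled by TMM (edgeR, adjusted p = 0.81). Atg101, which stabilises Atg13 and has a short transcript of 1270 bp, was at 16.5, 17.2 and 16.4 FPKM in WT and at 15.7, 15.1 and 15.4 FPKM in KO. Its log2 fold change of -0.17 (edgeR, adjusted p = 0.048) equals the median of its length bin, and it was 0.03 with the correction (adjusted p = 0.78). Its call also ended without any 1 of the 6 libraries (adjusted p from 0.060 to 0.145).

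**Figure D2:**
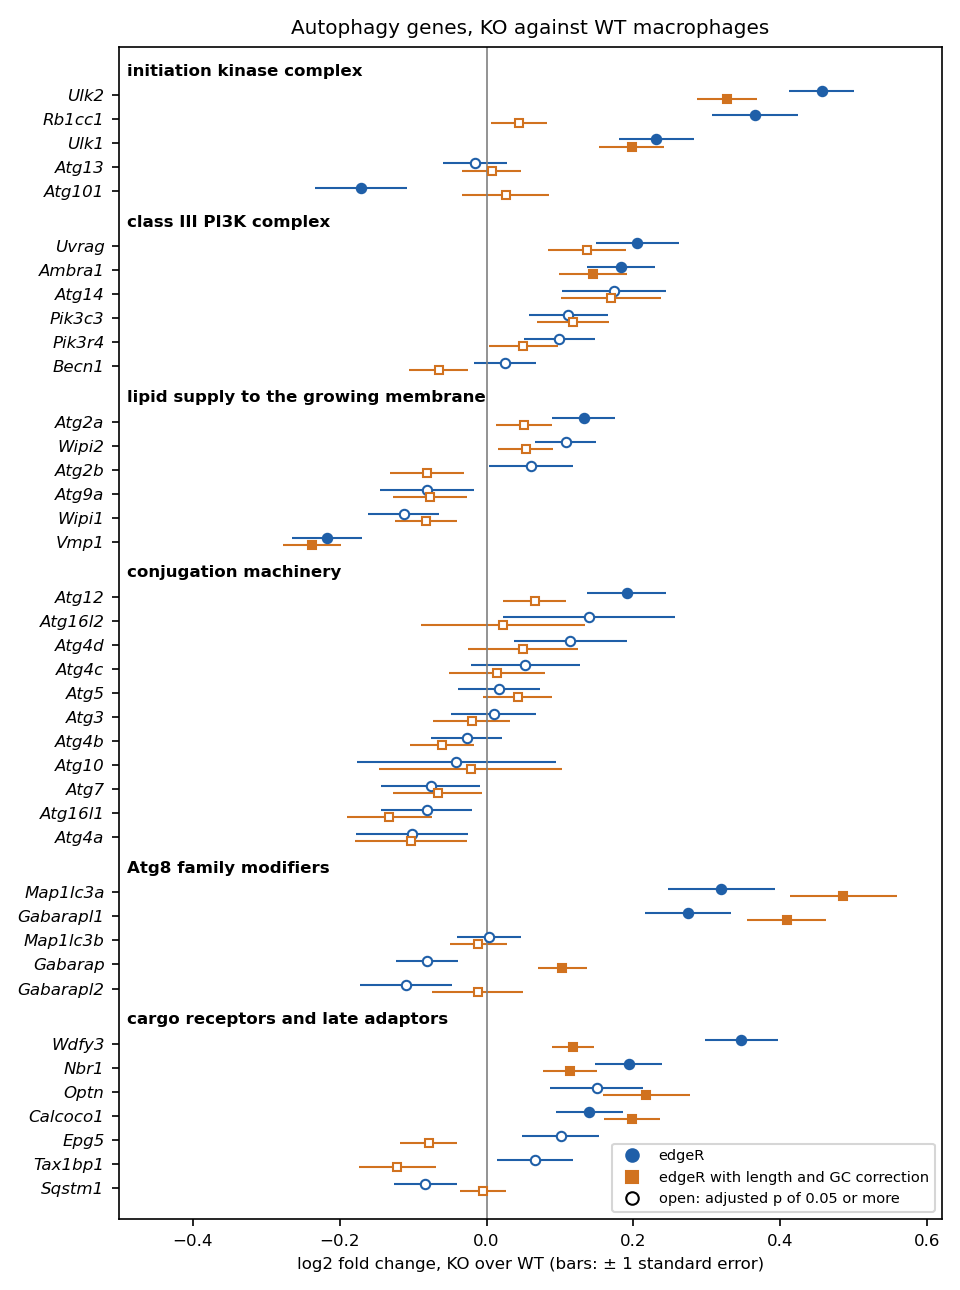
The log2 fold change of each of the 40 autophagy genes (x axis, KO over WT) is drawn by role, from edgeR (circles) and from edgeR with the length and GC correction (squares), with bars of 1 standard error. Filled symbols have an adjusted p under 0.05. Ulk2, Map1lc3a and Gabarapl1 lie right of 0 in both fits and Vmp1 left of 0, whereas Rb1cc1 moves from 0.37 to 0.04.

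Genes of the class III PI3K complex had positive log2 fold changes in 6 of 6 cases in the main fit, against 5683 of all 11636 tested genes. The medians of their length bins were also positive, from 0.001 to 0.13. Of the 6 genes 2 were called higher, against 20.3% of all tested genes, and 1 with the length and GC correction, against 14.2%. Becn1 was negative with upper-quartile scaling (-0.02) and with the length and GC correction (-0.07). Uvrag, the subunit of the complex that acts on endosomes and autophagosome maturation, was at 5.92, 6.45 and 6.23 FPKM in WT and at 7.80, 6.98 and 7.47 FPKM in KO (log2 fold change 0.21 ± 0.06, edgeR, adjusted p = 0.013). The groups did not overlap, but the call ended once length and GC content were corrected for (0.14, adjusted p = 0.074) and without KO library 1 (adjusted p = 0.068). Ambra1, a scaffold that links Beclin 1 and ULK1 to ubiquitin ligases, was at 8.48, 8.27 and 7.98 FPKM in WT and at 9.34, 9.88 and 9.92 FPKM in KO (log2 fold change 0.18, edgeR, adjusted p = 0.0078; corrected 0.14, adjusted p = 0.035). Its call ended with a correction on length alone (0.07, adjusted p = 0.24).

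Atg14, which directs the complex to the site of autophagosome formation, averaged 4.06 ± 0.15 FPKM (WT) and 4.75 ± 0.13 (KO) (SD, n = 3). It missed the threshold in edgeR (adjusted p = 0.073) and passed it in limma on log2(FPKM + 1) (adjusted p = 0.023). The catalytic subunit gene Pik3c3 (log2 fold change 0.11), the regulatory subunit gene Pik3r4 (0.10) and Becn1, which encodes Beclin 1 (0.02), were not called, with adjusted p of 0.12, 0.13 and 0.68 in edgeR.

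Among the genes that supply lipid to the growing membrane, Vmp1 fell. VMP1 is a membrane protein of the endoplasmic reticulum with scramblase activity, needed for autophagosome closure and release. Vmp1 was at 23.1, 21.4 and 20.5 FPKM in WT and at 19.0, 19.4 and 19.6 FPKM in KO, so that every KO library was below every WT library. The log2 fold change was -0.22 ± 0.05 (edgeR, adjusted p = 0.0039), and with the length and GC correction -0.24 ± 0.04 (adjusted p = 0.0011). Vmp1 occupies positions 86583865 to 86683836 of chromosome 11, minus strand.

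The lipid transfer gene Atg2a was called higher (from 9.37 ± 0.08 to 10.7 ± 0.42 FPKM, edgeR log2 fold change 0.13, adjusted p = 0.029). Its call ended with the length and GC correction (0.05, adjusted p = 0.34), with upper-quartile scaling (adjusted p = 0.14) and without any 1 library other than KO library 3 (adjusted p from 0.056 to 0.094). Here and in the following, ± after an FPKM mean is the SD of 3 libraries. Atg2b, its paralogue, averaged 3.16 ± 0.21 FPKM (WT) and 3.42 ± 0.08 (KO) and was not called. Atg9a, a scramblase of the vesicles that seed the membrane, had 10.7, 10.6 and 11.2 FPKM in WT and 9.94, 11.9 and 10.1 FPKM in KO, with KO library 2 the highest of the 6. It was not called (log2 fold change -0.08, edgeR, adjusted p = 0.35) and passed as lower without that library (-0.16, adjusted p = 0.026). The phosphoinositide-binding genes Wipi1 (log2 fold change -0.11, edgeR, adjusted p = 0.083) and Wipi2 (0.11, adjusted p = 0.058) lay on opposite sides of 0 and were not called. Wipi1 passed as lower with upper-quartile scaling (adjusted p = 0.023), and Wipi2 as higher in limma (adjusted p = 0.038).

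Of the 11 genes of the conjugation machinery, 1 was called, against 39.7% of all tested genes. With the length and GC correction 0 were called, against 30.4%. Atg12, the ubiquitin-like protein joined to Atg5, was at 7.43, 7.70 and 7.62 FPKM in WT and at 9.08, 8.35 and 9.53 FPKM in KO (log2 fold change 0.19, edgeR, adjusted p = 0.015). After correction for length and GC content, it was at 0.07 (adjusted p = 0.28), and the call also ended without KO library 1 (0.060) or 3 (0.066). Atg5 itself averaged 17.4 ± 0.90 FPKM (WT) and 18.3 ± 0.53 (KO), and the E2-like Atg3 14.7 ± 1.08 and 15.4 ± 0.52. The E1-like Atg7 had 9.43, 11.7 and 10.9 FPKM in WT and 10.04, 10.6 and 10.9 FPKM in KO, with WT library 1 the lowest of the 6. Without that library Atg7 was called lower (log2 fold change -0.16, edgeR, adjusted p = 0.030), whereas with it the value was -0.08 (adjusted p = 0.40).

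The Atg4 proteases trim Atg8 proteins before conjugation and free them later. Of their genes 0 of 4 were called, against 39.7% of all tested genes, with log2 fold changes from -0.10 (Atg4a) to 0.11 (Atg4d). Atg16l1, which places the conjugation machinery on the membrane, averaged 3.20 ± 0.15 FPKM (WT) and 3.14 ± 0.06 (KO). It was called lower only in the correction on merged exon length and GC content, an alternative added after the data were seen (log2 fold change -0.24, adjusted p = 0.013). Atg16l2 was the least expressed member (1.11 ± 0.14 FPKM in WT and 1.28 ± 0.09 in KO), and Atg10, the E2-like enzyme of the Atg12 system, had the largest standard error (log2 fold change -0.04 ± 0.14). Neither was called.

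The Atg8 family, whose products coat the membrane and bind the cargo receptors, split by gene. Map1lc3a, which encodes LC3A, was at 15.3, 14.0 and 14.3 FPKM in WT and at 18.5, 18.1 and 19.9 FPKM in KO, with no overlap. Its log2 fold change was 0.32 ± 0.07 (edgeR, adjusted p = 0.0046), and all genes of its length bin had a median of -0.17. With the length and GC correction it was 0.49 ± 0.07 (adjusted p = 0.00056). Gabarapl1, a GABARAP paralogue, was at 82.6, 76.4 and 80.1 FPKM in WT and at 105.5, 92.1 and 102.1 FPKM in KO. All KO libraries were again above all WT libraries (log2 fold change 0.27 ± 0.06, edgeR, adjusted p = 0.0032; corrected 0.41 ± 0.05, adjusted p = 0.00025), against a median of -0.11 in its length bin. Map1lc3a occupies positions 155276297 to 155278073 of chromosome 2 and Gabarapl1 positions 129533160 to 129542346 of chromosome 6, both on the plus strand.

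The other 3 family genes overlapped between the genotypes. Gabarap, the most abundant member, was at 221.3, 204.8 and 211.0 FPKM in WT and at 206.8, 213.0 and 205.4 FPKM in KO, and Map1lc3b, which encodes LC3B, averaged 23.6 ± 0.66 FPKM (WT) and 24.6 ± 0.71 (KO). Gabarapl2 averaged 14.2 ± 0.70 and 13.6 ± 0.43. For Gabarap the direction depended on the fit: the log2 fold change was -0.08 (edgeR, adjusted p = 0.15), it passed as lower with upper-quartile scaling (-0.13, adjusted p = 0.037) and as higher with the length and GC correction (0.10, adjusted p = 0.035).

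Within the family's summed FPKM, Gabarap made up 61.8, 61.7 and 61.5% in WT and 56.1, 58.8 and 56.3% in KO, and Gabarapl1 23.1, 23.0 and 23.3% in WT and 28.6, 25.4 and 27.98% in KO. Map1lc3a made up 4.22 ± 0.06% in WT and 5.15 ± 0.27% in KO and Gabarapl2 4.12 ± 0.15% and 3.73 ± 0.15%. For these 4 shares the groups did not overlap (exact permutation test, two-sided, p = 0.10 each, the smallest that 3 against 3 libraries allow, and 0.125 adjusted over the 5 genes). Map1lc3b made up 6.86 ± 0.16% in WT and 6.72 ± 0.22% in KO (exact permutation test, p = 0.40). A share of a sum falls when another member rises.

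**Figure D3:**
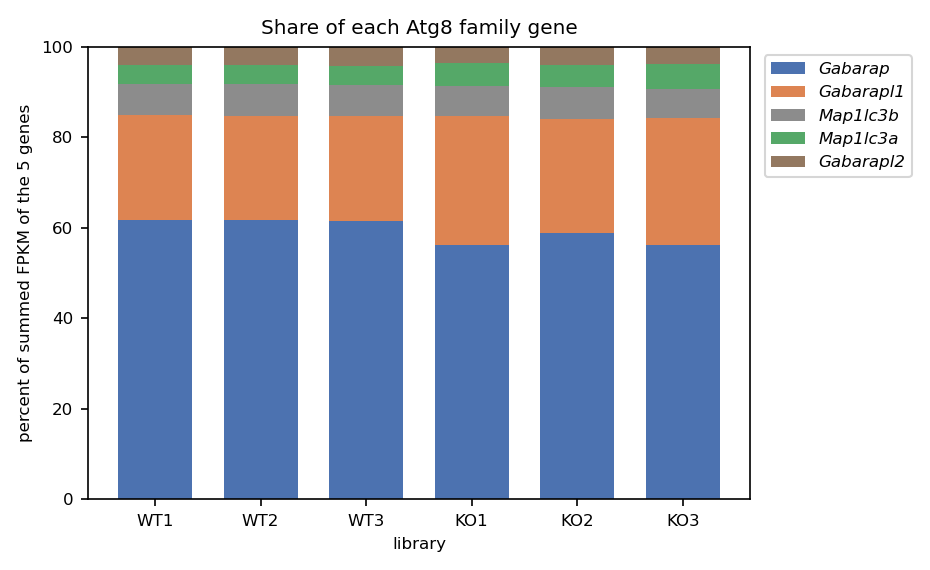
Bars show the share of each of the 5 Atg8 family genes in their summed FPKM (y axis, percent) in each of the 6 libraries (x axis). Gabarapl1 takes 23.0 to 23.3% in WT and 25.4 to 28.6% in KO, and Gabarap 61.5 to 61.8% and 56.1 to 58.8%.

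Of the cargo receptors and late adaptors, 3 of 7 were higher, against 20.3% of all tested genes. With the length and GC correction 4 were higher, against 14.2%. Wdfy3 encodes ALFY, a very large adaptor for protein aggregates, and has the longest transcript of the members (14274 bp). It was at 20.7, 22.7 and 23.0 FPKM in WT and at 28.1, 29.1 and 30.6 FPKM in KO (log2 fold change 0.35 ± 0.05, edgeR, adjusted p = 0.00026), with no overlap. With the length and GC correction the rise was 0.12 ± 0.03 (adjusted p = 0.0099), and with a correction on length alone it was 0.05 (adjusted p = 0.36). Nbr1, a ubiquitin-binding receptor, was at 26.1, 25.1 and 26.3 FPKM in WT and at 30.4, 29.5 and 32.0 FPKM in KO (log2 fold change 0.19, edgeR, adjusted p = 0.0056; corrected 0.11, adjusted p = 0.038), and with a correction on length alone its adjusted p was 0.086.

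Calcoco1, a receptor for parts of the endoplasmic reticulum and Golgi, rose from 12.2 ± 0.50 to 13.9 ± 0.50 FPKM (edgeR log2 fold change 0.14, adjusted p = 0.029; corrected 0.20, adjusted p = 0.0026). Without the correction its call ended when WT library 2 or 3 or KO library 1 or 2 was left out (adjusted p from 0.059 to 0.112) and with upper-quartile scaling (0.13). Optn, which encodes optineurin, a receptor in mitophagy and in the capture of bacteria, was at 6.10, 5.76 and 5.83 FPKM in WT and at 6.69, 6.71 and 6.98 FPKM in KO. It did not pass in the main fit (log2 fold change 0.15, edgeR, adjusted p = 0.080) and passed with the length and GC correction (0.22, adjusted p = 0.016).

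Sqstm1 encodes p62, the receptor best known in osteoclasts and the second most abundant member. It was at 185.6, 195.3 and 187.4 FPKM in WT and at 183.7, 194.6 and 178.6 FPKM in KO, with overlap (log2 fold change -0.08, edgeR, adjusted p = 0.14; corrected -0.01). With upper-quartile scaling it passed as lower (-0.13, adjusted p = 0.035). Tax1bp1, another ubiquitin-binding receptor, averaged 16.3 ± 1.11 FPKM (WT) and 17.7 ± 0.29 (KO), and Epg5, a tether between autophagosome and lysosome, 5.02 ± 0.21 and 5.59 ± 0.28. Neither was called in the main fit. Both had negative values with the length and GC correction (Tax1bp1 -0.12 and Epg5 -0.08), while with length alone Tax1bp1 was at 0.01 and Epg5 at -0.13.

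**Figure D4:**
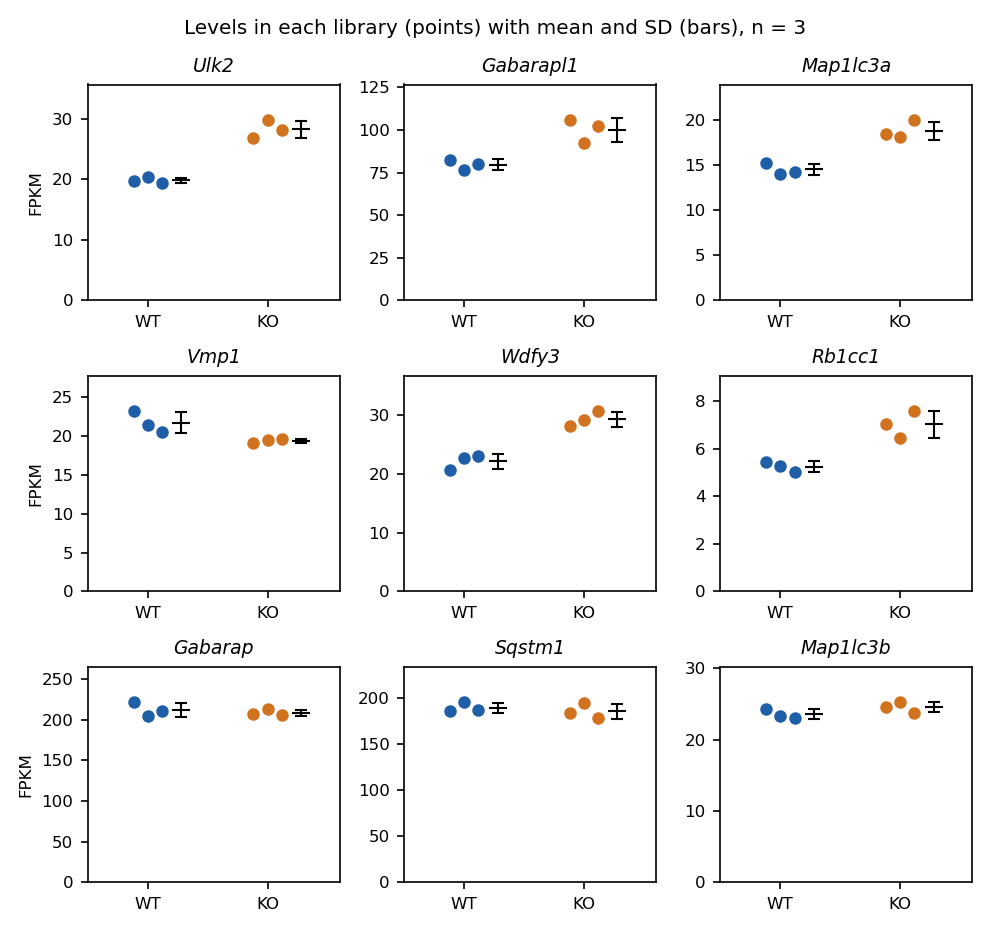
FPKM of 9 autophagy genes (y axis, from 0) in each WT and KO library (points), with the mean and SD of 3 libraries per genotype (bars). The KO points of Ulk2, Gabarapl1, Map1lc3a, Wdfy3 and Rb1cc1 lie above and those of Vmp1 below all WT points, while Gabarap, Sqstm1 and Map1lc3b overlap.

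Levels among the members spanned from 1.11 FPKM (Atg16l2) to 212 FPKM (Gabarap) in WT, with a median of 10.8, and every member had at least 326 estimated counts in each library. Gabarap, Sqstm1 and Gabarapl1 were far above the rest, and Nbr1 was the next at 25.8 FPKM. The deposited FPKM rest on the merged length of all annotated exons of a gene: for 9738 of 9809 genes with several transcripts the length implied by count and FPKM was within 5% of the merged exons, and for 1251 it was within 5% of the longest transcript. For 14 members the merged exons are at least 1.5 times as long as the longest transcript, so their FPKM are low by that measure. Per length of the longest transcript, Map1lc3b moved from rank 5 to 4 among the 40 members, Tax1bp1 from rank 11 to 5 and Calcoco1 from rank 16 to 9, and Gabarap, Sqstm1 and Gabarapl1 kept ranks 1 to 3. The order of members below them therefore depends on the length used, while a gene's FPKM ratio between KO and WT does not.

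Some members share sequence or position with other transcripts. The processed pseudogene Gm6055 matches Map1lc3b at 99.7% identity and held 15.6% as many counts. It averaged 76.3 ± 2.46 FPKM (WT) and 73.9 ± 3.24 (KO) and was not called (edgeR, adjusted p = 0.25), so the split of reads between them, and with it the level of Map1lc3b, is uncertain. Exons of Atg4d overlap those of Kri1 on the opposite strand by 1405 bp, and Kri1 was lower in KO (log2 fold change -0.23, edgeR, adjusted p = 0.045). Atg2b overlaps Gskip by 383 bp on the opposite strand. Whether counting used the strand is not given in the sources used here, so Atg4d and Atg2b are uncertain too. Atg9a overlaps Gm29253 by 1832 bp on the same strand, where strand cannot separate the reads, and Gm29253 held 5.57% as many counts. Vmp1 overlaps Mir21a by 92 bp, also on the same strand, and Mir21a held 0.019% as many counts. Atg16l2 overlaps Fchsd2 by 25 bp on the opposite strand. Fchsd2 held 719% as many counts and was higher in KO (log2 fold change 0.58, edgeR, adjusted p = 2.0e-06).

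Genes around the core machinery were read from 6 further lists with 85 tested genes that are not members. Of these, 23 were higher and 15 lower in KO (edgeR), against 20.3% and 19.4% of all tested genes, with a median log2 fold change of 0.06. With the length and GC correction 18 were higher and 3 lower, against 14.2% and 16.3%. These shares are also the background of each list below. Of 27 genes of nutrient sensing by mTORC1, AMPK and the lysosome, 8 were higher and 5 lower, against 5 and 0 with the correction. Fnip1 and Fnip2, partners of folliculin, were higher (log2 fold changes 0.41 and 0.31, edgeR, adjusted p = 0.00010 and 0.00017). With the length and GC correction these rises shrank to 0.12 and 0.16 (adjusted p = 0.019 and 0.0063). Of 10 transcription factors of autophagy genes, 3 were higher and 1 lower (2 and 1 with the correction). Mitf, a MiT family factor, rose from 11.2 ± 0.47 to 15.8 ± 0.74 FPKM (edgeR, adjusted p = 4.8e-05) and Atf4, which drives the response to amino acid shortage and endoplasmic reticulum stress, fell from 40.2 ± 0.84 to 31.2 ± 1.19 FPKM (adjusted p = 2.0e-05), both also with the correction (0.29 and -0.30).

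Of 17 other selective receptors and mitophagy genes, 7 were higher and 3 lower (5 and 1 with the correction). Ncoa4, the receptor that brings ferritin to the autophagosome, rose from 23.8 ± 0.24 to 35.0 ± 1.10 FPKM (edgeR log2 fold change 0.50 ± 0.04, adjusted p = 4.5e-06; corrected 0.40). Pink1, the kinase that marks damaged mitochondria, rose from 21.9 ± 1.65 to 32.6 ± 1.31 FPKM (0.52 ± 0.05, edgeR, adjusted p = 3.1e-05; corrected 0.60). In the main fit both rises were larger than that of any of the 40 members, and with the correction Map1lc3a (0.49) and Gabarapl1 (0.41) had larger values than Ncoa4. A pseudogene matches Ncoa4 and held 21.3% as many counts, so its level is uncertain.

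Of 14 genes of autophagosome fusion with the lysosome, 2 were higher and 2 lower (2 and 0 with the correction), with Stx17, the SNARE of the autophagosome, at 5.997 ± 0.13 FPKM (WT) and 7.83 ± 0.19 (KO) (edgeR, adjusted p = 0.00045) and the tethering gene Vps41 at 18.9 ± 0.53 and 22.4 ± 0.31 (adjusted p = 0.0043). Of 10 other core genes, 2 were higher, Sh3glb1 and Snx30, and both calls ended with the length and GC correction (edgeR, adjusted p = 0.92 and 0.079), in which 2 other genes of the list were called higher. Of 7 genes of LC3-associated phagocytosis, 1 was higher and 4 lower, and 2 and 1 with the correction. Rubcn, which encodes Rubicon, was higher (from 9.37 ± 0.04 to 11.5 ± 0.22 FPKM, edgeR, adjusted p = 0.00077). Cyba, a subunit of the NADPH oxidase with a transcript of 744 bp, was lower (log2 fold change -0.14, adjusted p = 0.018) and turned higher with the length and GC correction (0.13, adjusted p = 0.0086). Its call as lower also ended without WT library 1 or 3 or KO library 3.

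Libraries held 53188659 to 55255365 estimated counts in WT and 63607276 to 70059042 in KO. Pebp1 was at 33.2 to 39.2 FPKM in WT and had a count of 0 in all 3 KO libraries. All 10 macrophage markers were measured, at a summed 20880 to 22350 FPKM in WT and 19080 to 19360 in KO. Of these, 4 were higher and 4 lower, against 20.3% and 19.4% of all tested genes, the background of each marker list. Of 10 tested neutrophil markers, 9 were lower in KO, and the median log2 fold change of the 10 was -4.73 (edgeR). Summed levels of this list were 101.6 to 190.5 FPKM in WT and 20.5 to 22.3 in KO. The defining gene Ly6g was at 0 in every KO library, as were Cd3d, Cd8a, Flt3, Hbb-bs, Hba-a1 and Prss34 of other lists. A 0 in KO is thus not particular to neutrophil markers, and alone it shows no fall from WT. Monocyte markers, 4 lower and 1 higher of 6, summed to 392 to 463 FPKM and 380 to 436. Summed levels were low for B cell (3.56 to 4.19 FPKM in WT and 4.94 to 4.97 in KO), T and NK cell (1.34 to 1.75 and 1.26 to 1.48), dendritic cell (4.64 to 4.77 and 6.596 to 7.19) and mast cell and basophil markers (1.81 to 2.38 and 1.45 to 1.70). Stromal and osteoblast markers summed to 827 to 919 FPKM in WT and 851 to 959 in KO. The erythroid and megakaryocyte sum was 107 to 117 FPKM in WT and 137 to 144 in KO. Of its 5 measured markers, 4 averaged far below 1 FPKM, so this sum is in effect the level of 1 gene. Its shift describes that gene and not the list. In bulk samples fewer cells of a type and less RNA per cell cannot be told apart, and the part of these shifts in the values of the autophagy genes was not tested.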

How the data were processed

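Total RNA of 6 macrophage samples was selected with oligo(dT) and made into dUTP-marked libraries, per the labels' protocols. The tools listed per the submitters' processing notes are StringTie 1.3.4d, HISAT2 2.0.4 and cutadapt 1.9. Their roles, the genome build and the strand setting are not given in the sources used here. The deposited table holds FPKM and estimated counts, rounded to whole numbers by the authors. Low counts pile up at 4, as if about 4 counts stood for 1 fragment. Coordinates were those of GRCm38 (GENCODE M21) for 37 of 40 members (not for Rb1cc1, Optn and Atg9a).

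KO was compared with WT by edgeR 4.0.16 (R 4.3.3; quasi-likelihood, TMM, two-sided) on the estimated counts of the 11636 genes that average 1 FPKM or more, with Benjamini-Hochberg adjustment and a threshold of 0.05. All 40 members passed the filter. The length and GC correction is a loess offset (span 0.3) per library, on the longest GENCODE transcript. Other alternatives used limma 3.58.1 and DESeq2 1.42.0, other scalings and filters, and left out each library in turn. Pseudogenes were matched with minimap2 2.31 over at least 50% of their length. Both fits were tested on simulated counts. All members are described, with at most 2 genes per further list, those of smallest p. The members and lists were chosen with earlier results of these data known. With counts divided by 4, replicate pairs varied beyond counting noise (chi-square over its degrees of freedom, 3.65 to 7.44), so each library counted as 1 replicate.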

Additional observations from a re-analysis of the deposited data

How the results depend on the processing

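The count of members called higher (12) lay between 8 (without KO library 1) and 11 with 1 library left out, was 6 with a correction on length alone, and stayed within 1.5 times of 12 in all other alternatives. The count of members called lower (2) was 1 in each limma fit, with median-ratio scaling, without a filter, with the robust spread, with counts divided by 4 and with the length and GC correction, and 5 with upper-quartile scaling. It was 1 without WT library 2 or 3 or KO library 1 or 3, and 2 without WT library 1 or KO library 2. A mean of at least 5 FPKM leaves 34 members tested and gave 12 higher and 3 lower. With the length, GC and merged exon corrections, r of the members against length was -0.168 (length and GC), -0.328 (length alone) and -0.062 (merged exons and GC). Spearman's rho was 0.034 with length and GC. These corrections are built to remove the trend on length, so these coefficients cannot show whether the relation is stable. Without a correction and with 1 library left out, r ranged from 0.329 to 0.49, lowest without WT library 1. In the further lists, 15 genes were lower in the main comparison, 5 in each limma fit, 7 without a filter, 3 with the length and GC correction, 5 with length alone and 9 with merged exons and GC, and 6 to 13 with 1 library left out (6 without WT library 3). Counts over all tested genes, and of the further lists' higher genes, stayed within 1.5 times of the main ones in all 21 alternatives. The merged exon alternative was chosen after seeing the data, and 55 of 834 alternative values of members were sign changes of genes called in neither fit.

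Values that turned were those of Atg101 (0.026 with length and GC, 0.0126 with length alone, 0.0222 with merged exons and GC), Atg2a (-0.020 with length alone), Gabarap (0.10 with length and GC), Tax1bp1 (-0.19 with merged exons and GC), Epg5 (-0.13 with length alone) and Cyba (0.13 with length and GC, 0.17 with length alone, 0.10 with merged exons and GC). The cause was not tested.

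Whether the shared replicate numbers pair the libraries was not tested, and the main fit did not pair them. Deviations of same-numbered libraries correlated at 0.023, 0.187 and -0.038. The value of 0.187 (WT and KO library 2) was the highest of any WT and KO pair, followed by WT library 1 with KO library 3 (0.164). With the replicate number as a block, 12 members were higher and 1 lower, and with the block and the length and GC correction 10 and 1, r against length was -0.166, 5 genes of the further lists were lower, and Atg101, Gabarap and Cyba stood at 0.0261, 0.10 and 0.13. The block changed the call of no other member than Atg101. Precision was lowest for the members with the fewest counts, Atg10 (standard error 0.14, at least 326 counts per library) and Atg16l2 (0.12, at least 518).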
